A study of Mus musculus with 24 samples.

Results

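Complement expression in the vessel wall was followed through 8 genes, C1ra, C1rl, C4b, C2, C3, Cfb, C7 and Serping1, of the 25941 genes in the deposited count table. The 8 genes were chosen by name, with earlier results of these data known. C1rl was chosen because its level was lower in celecoxib-fed than in control aortas, so its values are given below as a description, with no test in any comparison. Every statement on called genes therefore covers the other 7 members.

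RNA was sequenced in 24 libraries from the thoracic aorta of male wild-type mice of strain C57BL/6, which were 10 to 12 weeks old. The 8 celecoxib libraries came from mice fed chow with celecoxib at 100 mg/kg/day, the 8 rofecoxib libraries from mice fed chow with rofecoxib at 50 mg/kg/day, and the 8 control libraries from mice fed chow without drug. Feeding lasted 3 weeks, and all tissue was taken at zeitgeber time 11, in hours after lights on. Both drugs inhibit the inducible cyclooxygenase encoded by Ptgs2, and celecoxib carries a sulfonamide where rofecoxib carries a methylsulfone. Because the doses differed, the comparison between the drugs is one of these fed groups and not of the molecules at a matched dose. The same 8 control libraries served both drug comparisons, and which animal each library came from is not labelled.

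Complement is a cascade of secreted proteins that coats surfaces with fragments of C3 and C4, attracts leukocytes and can open pores in membranes. The classical route starts when C1q binds a target, the protease C1r activates the protease C1s, and C1s cuts C4 and then C2. The alternative route builds a C3-cutting enzyme with factor B. Both routes meet at C3 before the terminal proteins, C7 among them, assemble on the membrane. Most circulating complement comes from the liver, but fibroblasts and macrophages of peripheral tissues, the outer vessel wall included, also make it.

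Library totals of the deposited counts lay between 21652432 and 21687906, a range of 0.164%, and since an unstated step before deposit had made them nearly equal, they do not give the sequencing depth. Title numbers run in a separate block for each group, so a batch along these numbers and the groups cannot be told apart. Groups also differed in how log2 CPM varied with transcript GC fraction, with slopes of 0.79 ± 0.96 in celecoxib, -1.09 ± 0.97 in rofecoxib and 0.29 ± 0.89 in control libraries (SD, n = 8 each). The labelled tissue was checked against markers: all 16 smooth muscle, all 14 endothelial and all 18 fibroblast and adventitia markers passed the low-count filter in these samples. Of 12 hepatocyte markers only 3 passed it, and 8 averaged under 0.1 CPM (TMM-scaled counts relative to the library size); the highest was Cyp2e1 at 270.6 CPM. In bulk tissue, fewer cells of a type and less RNA per cell cannot be told apart.

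All 8 members passed the low-count filter, and each had counts in every library. Levels between genes were compared as CPM per kb of the longest protein-coding transcript. On that scale Serping1, the inhibitor that inactivates C1r and C1s, stood highest, at 443 ± 68.4 with celecoxib, 342 ± 50.7 with rofecoxib and 418 ± 48.1 in controls (mean ± SD, n = 8 each). The terminal component C7 followed at 93.7 ± 19.1, 71.9 ± 17.0 and 96.9 ± 30.3 CPM per kb in celecoxib, rofecoxib and control libraries. C3 itself averaged 59.1 ± 17.5 CPM per kb with celecoxib, 53.9 ± 15.05 with rofecoxib and 67.0 ± 17.6 in controls.

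The classical proteins C1ra, C4b and C2 came next, with control means of 33.8 ± 4.08, 18.4 ± 5.04 and 6.88 ± 1.23 CPM per kb. The lowest members were C1rl, a protease related to C1r, at 3.39 ± 0.473 and Cfb, complement factor B, at 1.11 ± 0.243 CPM per kb in controls. Each gene in this order exceeded the next one in 24 of 24 libraries, except that C7 exceeded C3 in 23 of 24. The ranges of C7 (49.6 to 163 CPM per kb) and C3 (29.7 to 93.3) overlapped over all libraries, as did those of C3 and C1ra (22.3 to 41.7), of C1ra and C4b (8.57 to 29.4), of C4b and C2 (3.74 to 9.06) and of C2 and C1rl (1.94 to 4.29), while Serping1 stayed above C7 and C1rl above Cfb. The inhibitor and the terminal component were thus measured at higher levels than C4b and C2, which encode the substrates of C1s.

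Several parts of the cascade were near 0 in the aorta. Of the other 56 complement genes listed by role, 50 were in the table, 31 passed the filter and 19 did not; the highest of those 19 averaged 8.04 counts per library. Mbl2 had 0 counts in every library, which allows up to 0.139 CPM (3 counts, counting error only). Apart from C7 only C8g of the terminal list passed, at 1.145 ± 0.557 CPM per kb in controls, while C5 (Hc), C8a, C8b and C9 each stayed under 1 count per library on average, and C6 at 8.04.

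Genes that act on the same steps were well represented. Clu, which blocks the terminal complex, averaged 476 ± 49.9 CPM per kb in controls. C1s, the partner of C1r, stood at 47.8 ± 5.34 CPM per kb, and C1qa, C1qb and C1qc at 33.6 ± 6.57, 31.6 ± 6.12 and 26.6 ± 4.505. Cfd, the protease that cuts factor B, reached 658 ± 340.1 CPM per kb in controls, the widest spread of these; it is also an adipocyte gene, and summed adipocyte markers ran from 1825 to 10710 CPM over the control libraries. The role of adipose tissue in the Cfd level was not tested.

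**Figure D1:**
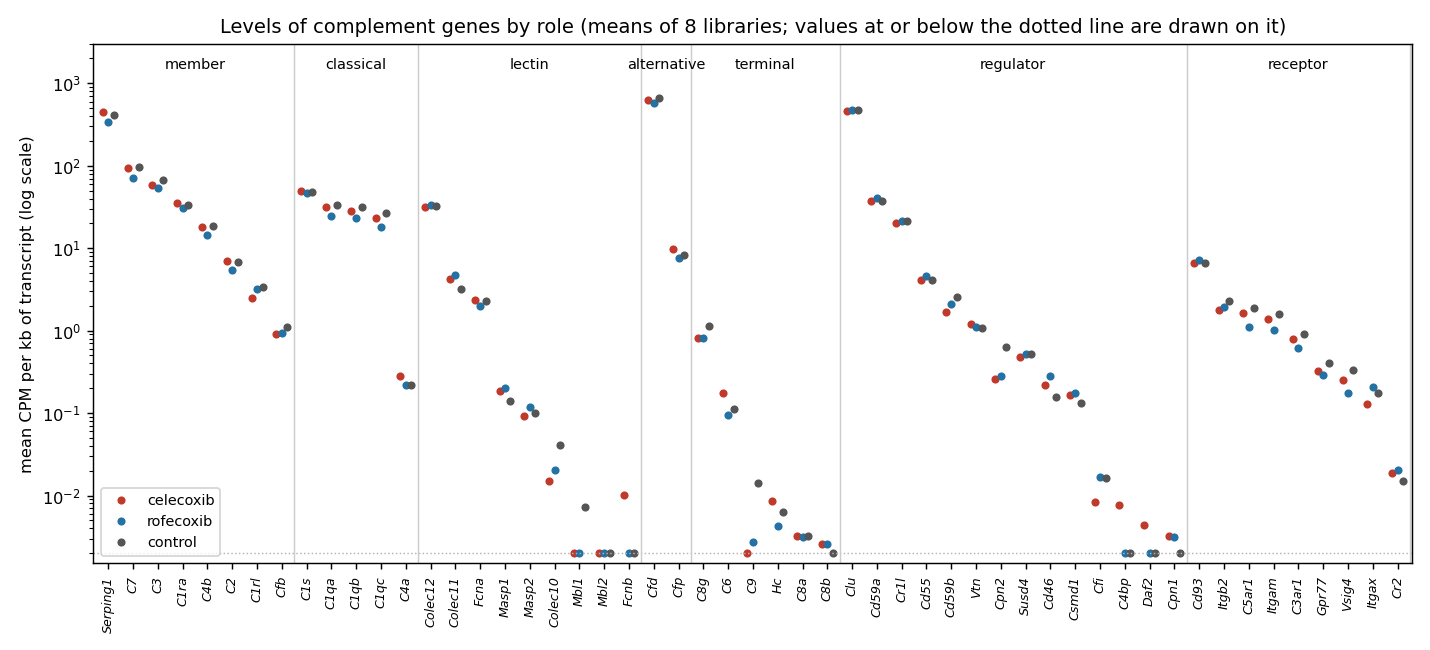
Mean CPM per kb of transcript (log axis) of the 8 members and of 45 other complement genes by role, 1 point per group of 8 libraries (red, celecoxib; blue, rofecoxib; grey, control). Serping1 is the highest member and Cfb the lowest. The terminal genes Hc, C8a, C8b and C9 and the lectin gene Mbl2 lie at or near the dotted floor. The lectin gene Colec12 averages 32.45 CPM per kb in controls.

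Against control chow, celecoxib gave no call among the 7 members tested: 0 of 7 were called by edgeR at an adjusted p under 0.05, 0 of 7 had an unadjusted p under 0.05, and DESeq2 called 0 as well. Over all genes tested, 1.41% were called in that comparison, and 2504 of 14451 had an unadjusted p under 0.05. The log2 fold changes of the 7 members had a median of -0.02, beside -0.01 over all genes. C1rl, picked on this comparison, had the log2 fold change farthest from 0 of the 8, at -0.45.

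With rofecoxib against control, 0 of 7 members were called by edgeR, beside 5.30% of all genes. Of the 7, 4 had an unadjusted p under 0.05, beside 3916 of 14451 genes tested, and all 7 had a log2 fold change below 0. DESeq2 called 1, Serping1. The median log2 fold change of the 7 was -0.31, beside -0.00 over all genes tested, of which 50.0% lay below 0. Without the library celecoxib 4, edgeR also called 1 member, Serping1.

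Between the drugs, Serping1 was higher with celecoxib than with rofecoxib and was the only 1 of 7 members called by edgeR, beside 22.7% of all genes called and 11.5% called higher. Of the 7, 5 had an unadjusted p under 0.05, beside 5201 of 14451 genes tested. A log2 fold change above 0 was found for 6, with a median of 0.34 beside -0.00 over all genes, of which 50.6% lay below 0. DESeq2 called 2, C2 and Serping1, and so did edgeR without celecoxib 3 or 5, rofecoxib 6 or 8, or control 1 or 8.

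**Figure D2:**
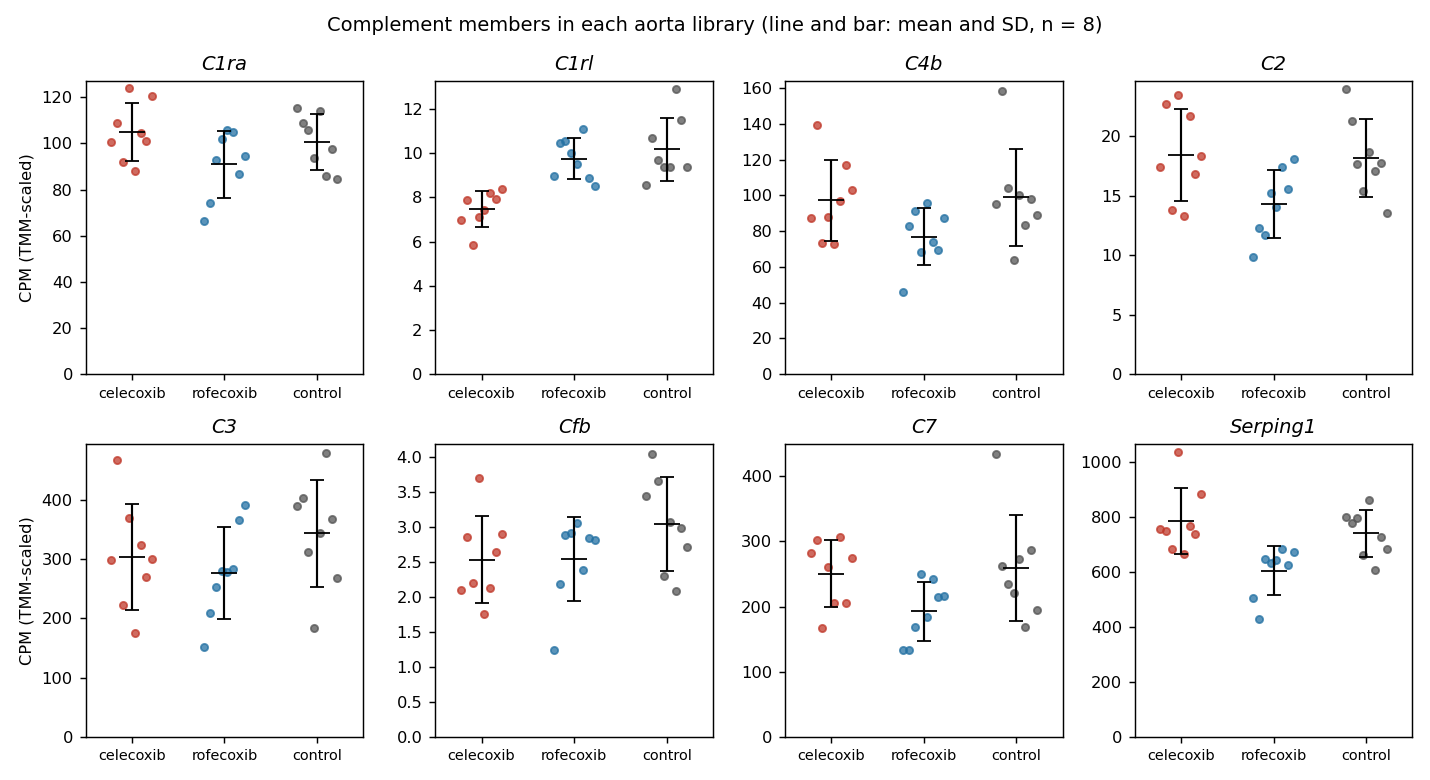
TMM-scaled CPM of each member in every library, with the mean and SD of 8 libraries per group (red, celecoxib; blue, rofecoxib; grey, control). All celecoxib points of C1rl lie below every rofecoxib and control point, and the lowest points of the other members belong to rofecoxib libraries.

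C1ra and C1rl are neighbours on chromosome 6, at 124462221 to 124473660 and 124442929 to 124460863 in mm9, with 1357 bases between the deposited gene bounds. C1ra encodes a C1r protease of the classical route; C1rl encodes a protein similar to it. The 250 bases before their RefSeq starts (GRCm38.p6, 5′ to 3′) are shown because the values below differ between these adjacent genes.
C1rl chr6:124492863-124493112 (+): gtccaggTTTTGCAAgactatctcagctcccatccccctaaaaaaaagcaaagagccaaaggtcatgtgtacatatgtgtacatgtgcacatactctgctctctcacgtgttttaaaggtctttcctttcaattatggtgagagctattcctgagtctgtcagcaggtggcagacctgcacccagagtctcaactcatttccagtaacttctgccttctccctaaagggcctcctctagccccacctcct
C1ra chr6:124512371-124512620 (+): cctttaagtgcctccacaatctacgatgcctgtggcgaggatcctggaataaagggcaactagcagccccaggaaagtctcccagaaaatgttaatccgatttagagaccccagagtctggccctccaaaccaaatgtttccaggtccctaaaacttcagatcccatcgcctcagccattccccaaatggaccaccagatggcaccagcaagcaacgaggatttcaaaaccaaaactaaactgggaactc

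Capitals mark a match to a searched motif. The windows were searched on both strands for TTGCNNAA (C/EBP) and TTCNNNGAA (STAT), letters bound by factors that drive acute-phase genes, and on the gene's strand for TATAAA. The C1rl window held 1 C/EBP match, TTTTGCAA, 243 to 236 bases before the start. The C1ra window held none of these letters. Of 32851 mouse promoter windows of the same length, 9.56% held the C/EBP letters, 7.02% the STAT letters and 7.59% TATAAA; a match is no evidence of binding.

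C1rl levels ran from 5.84 to 8.37 CPM with celecoxib (median 7.65), from 8.53 to 11.1 with rofecoxib (median 9.78) and from 8.58 to 12.9 in controls (median 9.55). All celecoxib libraries lay below all rofecoxib and control libraries, while the rofecoxib and control ranges overlapped. Groups failed to overlap in this direction for 0.104% of all genes between celecoxib and control and for 0.858% between celecoxib and rofecoxib. Raw counts were 125 to 179 with celecoxib, 187 to 246 with rofecoxib and 187 to 284 in controls.

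Set side by side, the C1rl log2 fold change (± SE) was -0.45 ± 0.09 for celecoxib against control, a fold of 0.733. It was -0.06 ± 0.08 for rofecoxib against control and -0.39 ± 0.09 for celecoxib against rofecoxib. These are the values that chose the gene or share libraries with them, so no interval is given. Leaving out any 1 of the 24 libraries kept the first between -0.48 and -0.39, which describes the picked value and is no support for it.

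C1ra, 1357 bases away, had another pattern. Its levels were 88.0 to 124 CPM with celecoxib (median 103), 66.5 to 106 with rofecoxib (median 93.7) and 84.5 to 115 in controls (median 102). The ranges overlapped throughout, and rofecoxib 1 and 2, at 66.5 and 74.2 CPM, were the 2 lowest libraries. Its log2 fold change was 0.06 ± 0.09 with celecoxib against control (edgeR adjusted p = 0.783, higher than the control mean in 5 of 8). With rofecoxib against control it was -0.15 ± 0.09 (edgeR adjusted p = 0.312, lower in 5 of 8). Between celecoxib and rofecoxib it was 0.21 ± 0.09 (95% interval 0.02 to 0.40, edgeR adjusted p = 0.110, higher than the rofecoxib mean in 7 of 8).

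Other genes around C1rl were looked up within 100000 bases. Pex5, a peroxisomal import receptor, averaged 65.2 CPM with celecoxib, 61.3 with rofecoxib and 65.3 in controls, and its log2 fold change was -0.00 ± 0.05 with celecoxib against control (edgeR adjusted p = 0.978). Clstn3, which encodes a synaptic cell adhesion protein, averaged 10.8, 15.1 and 21.95 CPM in celecoxib, rofecoxib and control libraries, a log2 fold change of -1.02 ± 0.40 with celecoxib against control (edgeR adjusted p = 0.188). C1s had 0.03 ± 0.08 in that comparison (edgeR adjusted p = 0.868), so none of these neighbours was called.

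C4b and C2 encode the substrates of C1s, and their cut products form the C3-cutting enzyme of the classical route. C4b levels were 72.9 to 139.6 CPM with celecoxib (median 92.5), 46.1 to 95.8 with rofecoxib (median 78.4) and 63.8 to 158 in controls (median 96.4). The groups overlapped; rofecoxib 1 was the lowest library, and control 2, at 158 CPM, stood apart from the next control at 103.9. C4b differed from control by a log2 fold change of -0.02 ± 0.16 with celecoxib (edgeR adjusted p = 0.951) and of -0.36 ± 0.16 with rofecoxib (edgeR adjusted p = 0.150, lower than the control mean in 8 of 8). Without control 2 these values were 0.10 and -0.23. Between celecoxib and rofecoxib the C4b difference was 0.34 ± 0.16 on the log2 scale (95% interval 0.01 to 0.67, edgeR adjusted p = 0.133). C4a, a close copy of C4b that may share reads with it, averaged 27.96 counts.

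C2 levels were 13.3 to 23.4 CPM with celecoxib (median 17.9), 9.88 to 18.1 with rofecoxib (median 14.7) and 13.5 to 23.9 in controls (median 17.7). The celecoxib and control ranges nearly coincided, and 3 rofecoxib libraries, at 9.88, 12.3 and 11.7 CPM, lay below both. Against control, the C2 log2 fold change was 0.02 ± 0.14 with celecoxib (edgeR adjusted p = 0.946) and -0.35 ± 0.14 with rofecoxib (edgeR adjusted p = 0.107, lower in 8 of 8). Between celecoxib and rofecoxib it was 0.37 ± 0.14 (95% interval 0.09 to 0.65, edgeR adjusted p = 0.0526, higher than the rofecoxib mean in 6 of 8), just short of the call.

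C2 and Cfb lie next to each other on chromosome 17, at 34999347 to 35035599 and 34993117 to 34999665 in mm9. Their deposited bounds share 319 bases, and those of C2 also span Zbtb12 and reach Ehmt2. Without stated strand use, reads there cannot be assigned to 1 gene with certainty.

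C3, where the routes meet, is shown with its promoter window as the member at the centre of the cascade (RefSeq, GRCm38.p6, 5′ to 3′, 250 bases before the start; capitals mark a motif match).
C3 chr17:57228137-57228386 (-): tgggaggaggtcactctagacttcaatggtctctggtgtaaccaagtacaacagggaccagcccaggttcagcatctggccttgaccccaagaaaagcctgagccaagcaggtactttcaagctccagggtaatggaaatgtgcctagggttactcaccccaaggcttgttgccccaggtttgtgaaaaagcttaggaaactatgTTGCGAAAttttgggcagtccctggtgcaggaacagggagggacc

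The C3 window held 1 C/EBP match, TTGCGAAA, 45 to 38 bases before the start, and neither of the other motifs. C3 levels were 175 to 468 CPM with celecoxib (median 300), 152 to 391 with rofecoxib (median 279.6) and 184 to 479 in controls (median 357). All 3 groups overlapped over most of their range, and each group held 1 of the 3 lowest libraries. The C3 log2 fold change against control was -0.18 ± 0.20 with celecoxib (95% interval -0.59 to 0.23, edgeR adjusted p = 0.679) and -0.31 ± 0.20 with rofecoxib (-0.73 to 0.10, edgeR adjusted p = 0.314). Between celecoxib and rofecoxib it was 0.13 ± 0.20 (95% interval -0.28 to 0.54, edgeR adjusted p = 0.672).

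Cfb, the protease subunit of the alternative C3-cutting enzyme, had only 26 to 89 counts per library. Its levels were 1.75 to 3.70 CPM with celecoxib (median 2.42), 1.25 to 3.055 with rofecoxib (median 2.83) and 2.09 to 4.05 in controls (median 3.03). The groups overlapped, with rofecoxib 1 lowest. Both drugs gave a Cfb log2 fold change of -0.26 ± 0.17 against control, with an edgeR adjusted p of 0.439 for celecoxib and of 0.337 for rofecoxib, and 7 of 8 libraries of each drug lay below the control mean. Between celecoxib and rofecoxib the value was -0.01 ± 0.17 (95% interval -0.36 to 0.35, edgeR adjusted p = 0.986).

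C7, which anchors the forming terminal complex in the membrane, is shown for the STAT letters in its window (RefSeq, GRCm38.p6, 5′ to 3′; capitals mark the match).
C7 chr15:5063774-5064023 (-): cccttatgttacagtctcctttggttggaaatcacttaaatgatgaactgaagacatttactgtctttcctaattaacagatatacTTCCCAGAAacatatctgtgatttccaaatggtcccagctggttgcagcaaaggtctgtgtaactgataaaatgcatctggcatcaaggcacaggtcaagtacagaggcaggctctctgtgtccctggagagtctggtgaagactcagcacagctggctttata

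The match, TTCCCAGAA, lay 164 to 156 bases before the start, and the window held neither of the other motifs. C7 levels were 167 to 306 CPM with celecoxib (median 268), 133 to 249.9 with rofecoxib (median 199) and 169 to 435 in controls (median 248). Control 1, at 435 CPM, stood apart from the next control at 286, and rofecoxib 1 and 2 were the lowest libraries. Against control, the C7 log2 fold change was -0.05 ± 0.17 with celecoxib (edgeR adjusted p = 0.912) and -0.43 ± 0.17 with rofecoxib (edgeR adjusted p = 0.115, lower in 8 of 8). Without control 1 these were 0.10 and -0.28. Between celecoxib and rofecoxib it was 0.38 ± 0.17 (95% interval 0.02 to 0.74, edgeR adjusted p = 0.114, higher in 7 of 8).

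Serping1 encodes the C1 inhibitor, which stops C1r and C1s and also proteases of the contact system. Its levels were 664 to 1035 CPM with celecoxib (median 751), 429 to 684 with rofecoxib (median 637) and 607 to 862.5 in controls (median 752). Celecoxib and rofecoxib libraries overlapped only at their edges, where celecoxib 3 and 5 (683 and 664 CPM) lay below rofecoxib 6 (684 CPM), while celecoxib and control libraries overlapped broadly. Serping1 was higher with celecoxib than with rofecoxib by 0.38 ± 0.10 on the log2 scale, a fold of 1.3 (95% interval 0.18 to 0.58, edgeR adjusted p = 0.0098), and 8 of 8 celecoxib libraries lay above the rofecoxib mean. The call held in 24 of 24 fits that left out 1 library, with adjusted p from 0.0078 to 0.0259. It also held without rofecoxib 1 and 2 together, at 0.27 (edgeR adjusted p = 0.0341), and after a correction for transcript GC content, at 0.35 (edgeR adjusted p = 0.043), but not with the replicate number as a block together with that correction (0.34, edgeR adjusted p = 0.0629).

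Against control, Serping1 differed by a log2 fold change of 0.08 ± 0.10 with celecoxib (95% interval -0.12 to 0.29, edgeR adjusted p = 0.694). With rofecoxib the value was -0.29 ± 0.10 (-0.49 to -0.09), and 8 of 8 libraries lay below the control mean, but the edgeR adjusted p of 0.0676 missed the threshold. DESeq2 placed it at an adjusted p of 0.0342, and over the other alternatives, each single library left out included, the edgeR adjusted p ran from 0.0466 to 0.211.

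**Figure D3:**
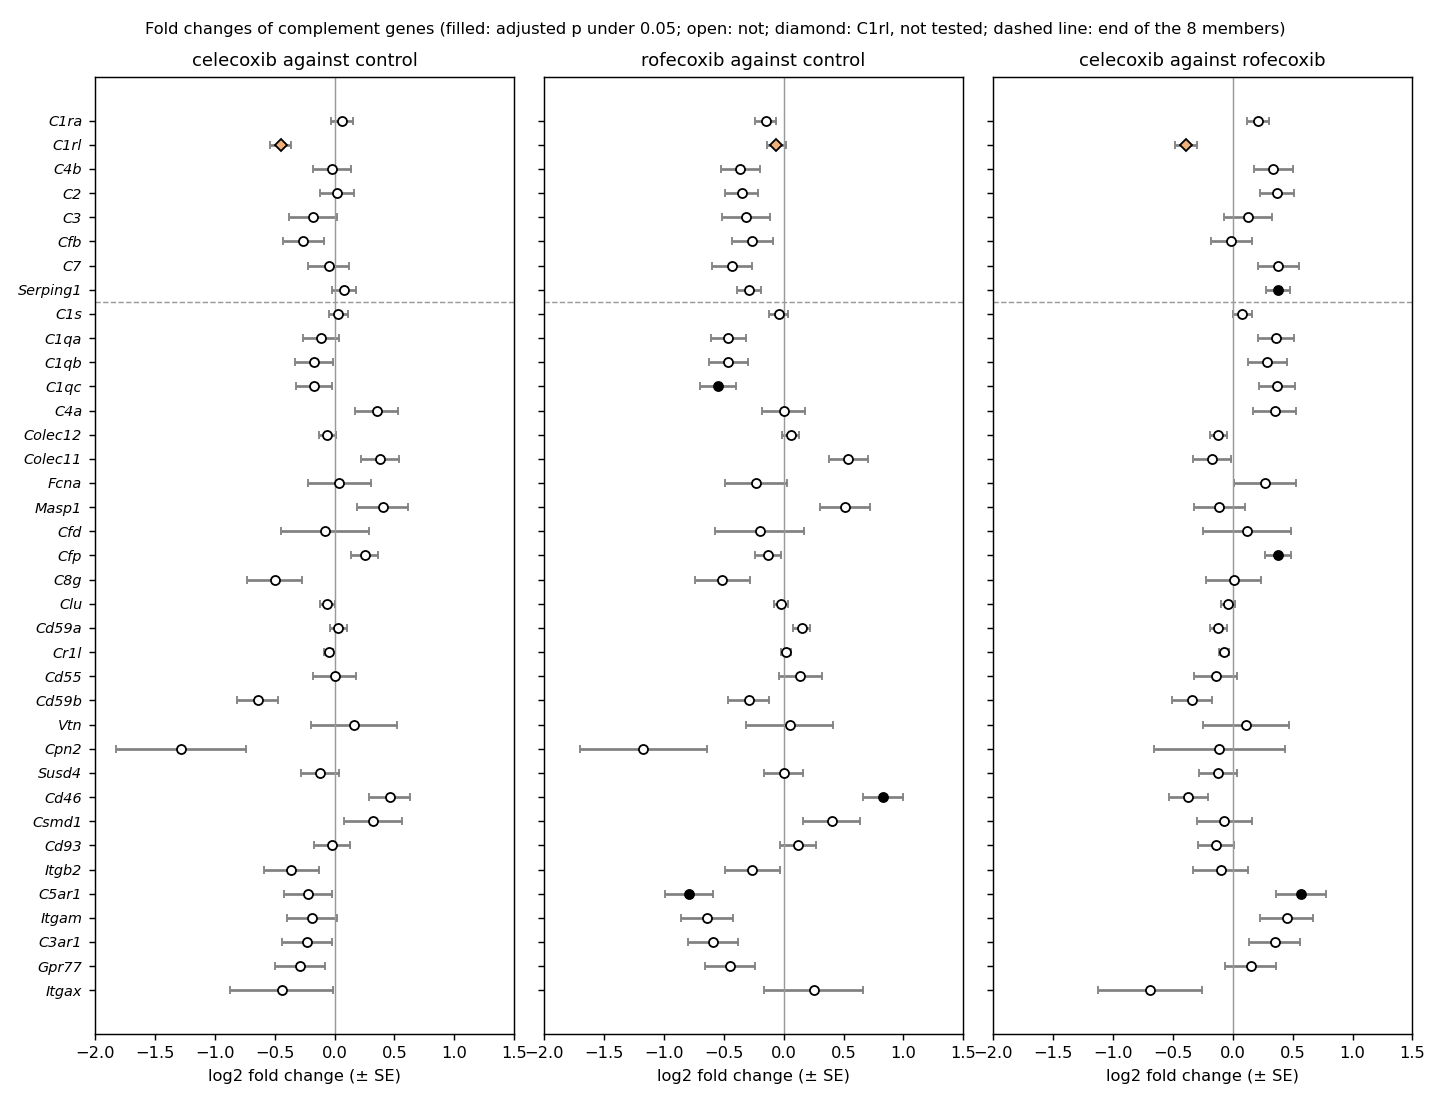
Log2 fold changes ± SE of the 8 members (above the dashed line) and 29 of the 31 other complement genes tested, for celecoxib against control, rofecoxib against control and celecoxib against rofecoxib. Filled points have an edgeR adjusted p under 0.05, diamonds mark C1rl, which was not tested, and the filled points are Serping1, Cfp and C5ar1 between the drugs and C1qc, C5ar1 and Cd46 for rofecoxib against control.

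Among the 31 other complement genes tested, rofecoxib against control gave 3 calls, beside 5.30% of all genes, celecoxib against rofecoxib 2, beside 22.7%, and celecoxib against control 0, beside 1.41%. The 2 calls between the drugs are a smaller share than that of all genes. With celecoxib against control edgeR left 6 of 31 with an unadjusted p under 0.05, beside 2504 of 14451 genes tested. DESeq2 called 1 in that comparison, Cd59b, and the median log2 fold change was -0.06. Cd59b, a membrane-bound inhibitor of the terminal complex, averaged 1.32 CPM with celecoxib, 1.68 with rofecoxib and 2.06 in controls. Its log2 fold change was -0.64 ± 0.17 for celecoxib against control (edgeR adjusted p = 0.0557, lower in 8 of 8), and edgeR called it without celecoxib 7.

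Of the 3 chains of C1q, which recognises the target in the classical route, C1qc was called with rofecoxib. C1qc levels were 19.5 to 38.7 CPM with celecoxib (median 27.5), 11.9 to 27.7 with rofecoxib (median 23.4) and 24.6 to 39.97 in controls (median 30.75). The rofecoxib libraries lay at the low end, with rofecoxib 2 and rofecoxib 1 lowest of all, and overlapped the other groups. C1qc fell with rofecoxib against control by a log2 fold change of -0.55 ± 0.15 (edgeR adjusted p = 0.043, lower in 8 of 8), a call that held in 13 of 24 fits that left out 1 library. It was lost without celecoxib 6, without rofecoxib 1, 2, 3, 7 or 8, and without control 2, 3, 5, 6 or 7, over a range of -0.60 to -0.45 for all 24. After the GC correction it was -0.44 (edgeR adjusted p = 0.175).

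The other chains had similar values without passing: C1qa was at -0.46 ± 0.15 (edgeR adjusted p = 0.0674) and C1qb at -0.46 ± 0.16 (edgeR adjusted p = 0.0725), each lower in 8 of 8. Their means were 32.5, 25.3 and 34.95 CPM for C1qa and 30.6, 24.9 and 34.4 CPM for C1qb in celecoxib, rofecoxib and control libraries. C1q chains are made mainly by macrophages, whose markers are given below.

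C5ar1, the receptor through which C5a attracts leukocytes, fell with rofecoxib against control and was higher with celecoxib than with rofecoxib. It averaged 4.135 CPM with celecoxib, 2.79 with rofecoxib and 4.82 in controls, from 35 to 143 counts per library. Its log2 fold change was -0.79 ± 0.20 for rofecoxib against control (edgeR adjusted p = 0.0323, lower in 8 of 8) and 0.57 ± 0.21 for celecoxib against rofecoxib (edgeR adjusted p = 0.0484, higher in 7 of 8). The first call held in 19 of 24 fits that left out 1 library and ended without rofecoxib 1, 2 or 8 or control 5 or 7. The second held in 7 of 24, those without celecoxib 5, rofecoxib 6 or 7 or control 2, 5, 6 or 8, with log2 fold changes from 0.47 to 0.66 over all 24. After the GC correction C5ar1 was not called in either comparison (edgeR adjusted p = 0.0647 and 0.0758), nor with the replicate block added to it (edgeR adjusted p = 0.115 and 0.137).

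Cd46, a membrane cofactor for the cleavage of C3b that in the mouse is known mainly from testis, was scarce, at 16 to 50 counts per library. It averaged 1.37 CPM with celecoxib, 1.77 with rofecoxib and 0.993 in controls, and every rofecoxib library lay above every control library, as did those of 0.201% of all genes. Cd46 rose with rofecoxib against control by a log2 fold change of 0.83 ± 0.17 (edgeR adjusted p = 0.0123, higher in 8 of 8) and was called in 24 of 24 fits that left out 1 library. DESeq2 gave it no adjusted p. With the GC correction the call held at 0.71 (edgeR adjusted p = 0.0356), but not with the replicate block added (0.71, edgeR adjusted p = 0.0568).

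Cfp, properdin, which stabilises the alternative C3-cutting enzyme, averaged 16.1 CPM with celecoxib, 12.3 with rofecoxib and 13.5 in controls. It was higher with celecoxib than with rofecoxib by a log2 fold change of 0.38 ± 0.11 (edgeR adjusted p = 0.0167, higher than the rofecoxib mean in 8 of 8), in 24 of 24 fits that left out 1 library. After the GC correction the Cfp value was 0.25 (edgeR adjusted p = 0.147), and without rofecoxib 1 and 2 together it was 0.31 (edgeR adjusted p = 0.0638). Against control it was 0.25 ± 0.11 with celecoxib (edgeR adjusted p = 0.240) and -0.13 ± 0.11 with rofecoxib (edgeR adjusted p = 0.438).

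Counts by role were as follows for rofecoxib against control. Of the 5 classical genes tested 1 fell (median -0.46), of 7 receptors 1 fell (median -0.45) and of 12 regulators 1 rose (median 0.01). Of 4 lectin genes 0 passed (median 0.29), and 2 had an unadjusted p under 0.05, beside 3916 of 14451 genes tested. Over all 31 the median log2 fold change was -0.12, and DESeq2 called 7: C1qa, C1qb, C1qc, C5ar1, C3ar1 and Itgam lower and Colec11 higher. Without control 4, edgeR called 5 of 31, and without rofecoxib 2, rofecoxib 8, control 5 or control 7 it called 1, Cd46.

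The highly expressed Clu and C1s had small fold changes. Clu was at -0.06 ± 0.06 with celecoxib and -0.02 ± 0.06 with rofecoxib against control on the log2 scale, with 95% intervals of -0.18 to 0.06 and -0.14 to 0.10. C1s was at 0.03 ± 0.08 and -0.04 ± 0.08 in the same comparisons. Neither was called.

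Markers of other cell types also differed between groups. Of 18 fibroblast and adventitia markers, all detected, 7 fell and 0 rose with rofecoxib against control (median log2 fold change -0.33; 2.87% of all genes fell and 2.43% rose), among them Col1a1, Pcolce and Podn; 9, beside 11.5% of all genes, were higher and 0 lower with celecoxib than with rofecoxib (median 0.31); and 0 were called with celecoxib against control (edgeR and DESeq2; median 0.02; 0 with an unadjusted p under 0.05). Their summed level ran from 14640 to 20480 CPM with celecoxib, from 12820 to 16260 with rofecoxib and from 14600 to 20630 in controls. Of 15 macrophage markers, all detected, 2 fell with rofecoxib against control, Cd14 and Fcer1g (median -0.40), 0 were called with celecoxib against control by edgeR or DESeq2 (median -0.19; 1 with an unadjusted p under 0.05), and 1, Cd163, was higher with celecoxib than with rofecoxib (median 0.22). Their sum ran from 201 to 434 CPM with celecoxib, from 159 to 333 with rofecoxib and from 275 to 442 in controls. Of 12 adipocyte markers, 0 were called with either drug against control by edgeR or DESeq2. Between the drugs 1, Plin4, was higher with celecoxib (log2 fold change 0.24 ± 0.06, edgeR adjusted p = 0.0084), beside 11.5% of all genes. Against control, the median log2 fold change of the 12 was -0.38 with celecoxib (10 of 12 below 0) and -0.40 with rofecoxib (12 of 12 below 0). Over all 14451 genes tested, 7460 and 7232 lay below 0. The part of adipose tissue in the C3 values was not tested. 

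Some smooth muscle markers rose with each drug against the shared controls. Of 16, all detected, 5 rose and 0 fell with celecoxib against control, Acta2, Actg2, Tagln, Tpm1 and Tpm2 (median log2 fold change 0.16; 0.913% of all genes rose). With rofecoxib against control 4 rose and 0 fell, the same genes without Tpm2 (median 0.20). Between the drugs 0 were called by edgeR or DESeq2 (median 0.01), and 6 had an unadjusted p under 0.05 by edgeR, beside 5201 of 14451 genes tested. Their summed level ran from 53490 to 66010 CPM with celecoxib, from 55340 to 66230 with rofecoxib and from 45290 to 60150 in controls. After the GC correction 1 was called in each drug comparison with control, Actg2 with celecoxib and Tagln with rofecoxib, and fibroblast markers that fell with rofecoxib numbered 2. With single libraries left out, 1 to 6 smooth muscle markers rose with celecoxib and 1 to 7 with rofecoxib, and 3 to 9 fibroblast markers fell with rofecoxib. The part of these cell types in the Serping1, C1qc and C5ar1 results was not tested.

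A pair of rofecoxib libraries carried the lowest values. Rofecoxib 1 was the lowest of 24 libraries for 5 members (C1ra, C4b, C2, C3 and Cfb) and rofecoxib 2 for 2 (C7 and Serping1), and both held the lowest macrophage sums. Rofecoxib 2 also stood apart in its summed cardiac muscle markers, at 582 CPM, beside 66.8 to 120.1 CPM in every other library, and Actc1, the cardiac actin, rose with rofecoxib against control at a log2 fold change of 2.16 ± 0.56 (edgeR adjusted p = 0.0333), a call lost without rofecoxib 2, 7 or 8 or control 5, 6 or 7. The part of cardiac tissue in the low values of rofecoxib 2 was not tested; the Serping1 call between the drugs held without that library. Without rofecoxib 1 and 2, a step added after the values had been seen, the rofecoxib against control values of the 7 members lay between -0.30 (C4b and C7) and -0.06 (C1ra), and Serping1 stood at -0.20 (edgeR adjusted p = 0.175). C1qc was then at -0.39 (edgeR adjusted p = 0.0914) and C5ar1 at -0.66 (edgeR adjusted p = 0.0854), neither of them called, while Cd46 kept its call at 0.83 (edgeR adjusted p = 0.0296).

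Centred on group means, the members other than C1rl moved together over the 24 libraries. Each member's log2 CPM was centred on its group mean and correlated over the 24 libraries, with p-values from 100000 permutations within groups and Benjamini-Hochberg adjustment over 76 relations, of which 28 were pairs of members. Over the 21 pairs without C1rl, Pearson's r ran from 0.33 to 0.88 (median 0.66). Of these, 19 passed the adjusted threshold by Pearson's r and 13 also by Spearman's rho. How many pairs of other genes would pass was not computed, so 19 of 21 is not shown to be particular to complement. Cpxm2, outside the list, reached r = 0.95 with C1ra. The 7 pairs with C1rl ran from -0.11 to 0.32 (median 0.05) over the 24 libraries, but differed between groups. Within celecoxib libraries alone their r ran from 0.20 (Cfb) to 0.66 (C7), all above 0. Within rofecoxib libraries it ran from -0.24 (C3) to 0.27 (C1ra), and within controls from -0.55 (Serping1) to 0.54 (C3).

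The closest pair was C1ra and Serping1, a protease and its inhibitor, with r = 0.88 and rho = 0.91 (adjusted permutation p = 8.44e-05 and 0.00019). It kept r = 0.88 without rofecoxib 1 and 2, the libraries farthest out in C1ra, and was 0.93, 0.84 and 0.91 within celecoxib, rofecoxib and control libraries. C2 correlated with C7 at r = 0.81 and rho = 0.81 (adjusted permutation p = 8.44e-05 and 0.000217) and with C3 at r = 0.81 and rho = 0.84 (adjusted permutation p = 0.000127 and 0.000217). Without the 2 libraries farthest out in the first gene these r were 0.79 (without celecoxib 5 and rofecoxib 1) and 0.80 (without control 4 and rofecoxib 1). C4b had the loosest ties: with C7 it reached r = 0.33 and rho = 0.24 (adjusted permutation p = 0.185 and 0.347), and with Serping1 r = 0.34 and rho = 0.41 (adjusted permutation p = 0.176 and 0.107), and both were 0.25 without control 2 and rofecoxib 1.

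C1ra and C1rl, though adjacent, correlated at r = 0.05 and rho = 0.11. Within groups their r was 0.44 with celecoxib, 0.27 with rofecoxib and -0.47 in controls. Over all 24 libraries, C1rl had its highest r among members with C4b, at 0.32.

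**Figure D4:**
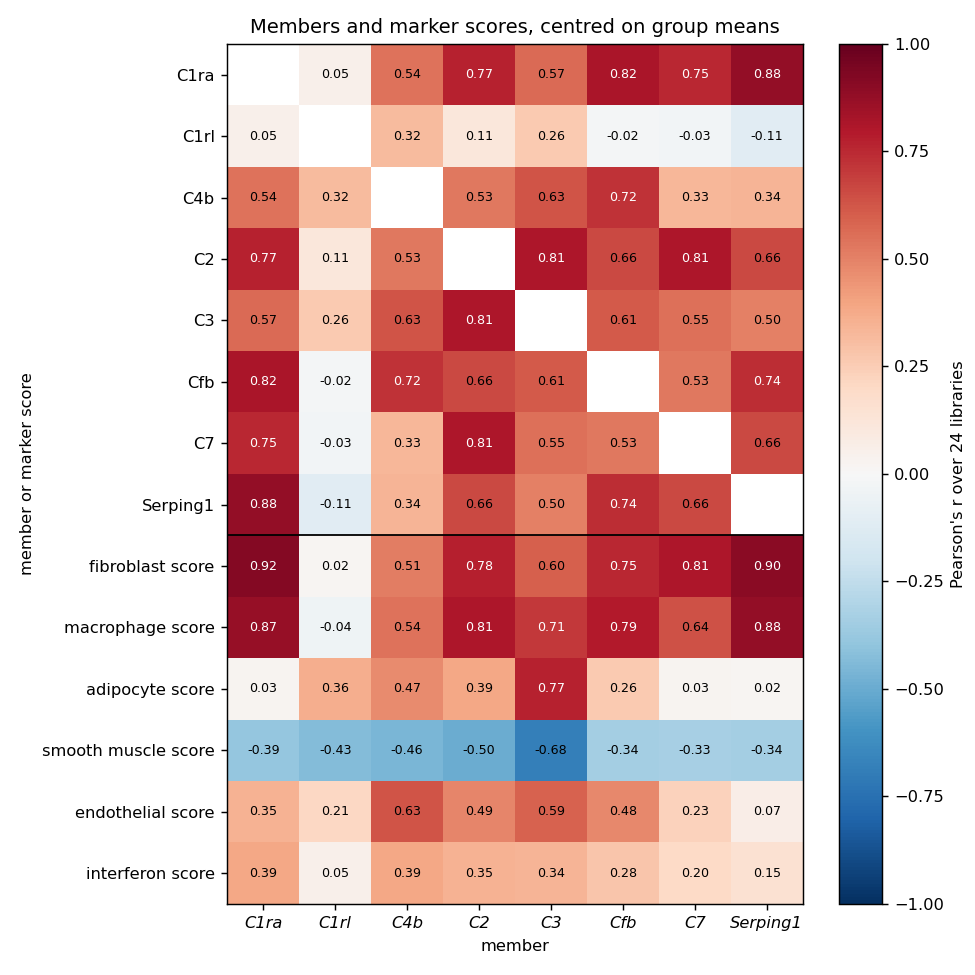
Pearson's r over 24 libraries between members, and between members and the mean log2 CPM of marker lists, each centred on its group mean. Members other than C1rl share r from 0.33 to 0.88, and the C1rl column stays between -0.11 and 0.32 for members.

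Marker scores, the mean log2 CPM of a list, tracked the members to different extents. The fibroblast and adventitia score correlated with C1ra at r = 0.92 and rho = 0.94 and with Serping1 at r = 0.90 and rho = 0.89 (adjusted permutation p = 8.44e-05 by r and 0.00019 by rho for both); without celecoxib 5 and rofecoxib 2, the libraries farthest out in the score, r was 0.92 and 0.86. C7, C2 and Cfb followed at r = 0.81, 0.78 and 0.75, with rho = 0.73, 0.83 and 0.75, then C3 at r = 0.60 and rho = 0.60 (adjusted permutation p by r from 8.44e-05 to 0.0104). C4b reached r = 0.51 and rho = 0.48 (adjusted permutation p = 0.035 and 0.0563), and 0.61 without celecoxib 5 and rofecoxib 2. C1rl stood at r = 0.02 over all libraries, with 0.50, 0.00 and -0.40 within celecoxib, rofecoxib and control libraries. The raw permutation p of 1e-05 behind the smallest values is the smallest that 100000 permutations can give.

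The macrophage score correlated with Serping1 at r = 0.88 and rho = 0.83 and with C1ra at r = 0.87 and rho = 0.83, at 0.84 and 0.81 without rofecoxib 1 and 2 (adjusted permutation p = 8.44e-05 by r for both). C2, Cfb and C3 reached r = 0.81, 0.79 and 0.71 with it, and C1rl -0.04. For the adipocyte score the highest r was that of C3, 0.77 with rho = 0.66 (adjusted permutation p = 0.000127 and 0.00384), and 0.69 without control 4 and 6, while C4b reached 0.47 and C1ra and Serping1 0.03 and 0.02. C3 also had an r of -0.68 and a rho of -0.58 with the smooth muscle score (adjusted permutation p = 0.00199 and 0.0155), and -0.57 without control 4 and 6. The interferon score passed the adjusted threshold with 0 of 8 members. Libraries share depth and tissue make-up, and these relations do not say which cells made the transcripts.

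**Figure D5:**
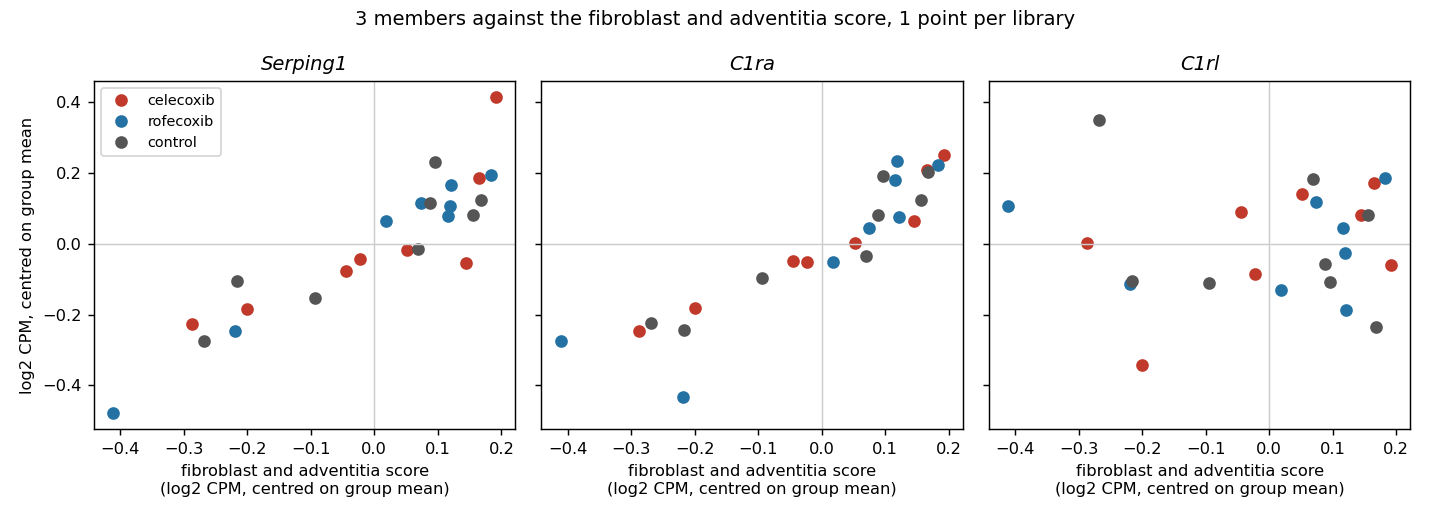
Serping1, C1ra and C1rl (log2 CPM centred on the group mean) against the fibroblast and adventitia score, 1 point per library (red, celecoxib; blue, rofecoxib; grey, control). Serping1 and C1ra follow the score in all groups, with r = 0.90 and 0.92. For C1rl r is 0.02 over all libraries, and 0.50, 0.00 and -0.40 within celecoxib, rofecoxib and control libraries.

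The genes most like each member, among 14451 tested and over the 24 centred libraries, were listed as a description. For C1ra they were Cpxm2 (r = 0.95), Myo1f (0.91) and Arhgap30 (0.89), and for Serping1 Rnase4 (0.94), Ctsl (0.92) and Abca8a (0.92). C7 was most like Scara5 (0.90), Srpx (0.89) and Zfp521 (0.87). Cfb was most like Cybb, a subunit of the phagocyte oxidase (0.85), Cd53 (0.83) and Irak3 (0.81). C3 was most like Xdh, xanthine dehydrogenase, Steap4, a metalloreductase, and Ptges, the prostaglandin E synthase, at 0.89 each.

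C2 was most like Nid1 at r = 0.86, and C4b most like Cd55, which speeds the decay of C3-cutting enzymes, at 0.79, followed by Rasa3 at 0.77. C1rl was most like Naprt1, an enzyme of NAD synthesis (0.82), Nsdhl, an enzyme of cholesterol synthesis (0.75), and the mitochondrial ribosomal gene Mrps18a (0.75). None of the 3 genes nearest to C1rl was nearest to another member.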

How the data were processed

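PolyA RNA of 24 thoracic aorta libraries was sequenced after TruSeq preparation with 13 PCR cycles, per the labels' protocols. Per the submitters' processing notes the tools were STAR 2.5.1b and CASAVA 1.8.2, and the build mm9; the counting tool, its annotation and strand use were not given in the sources used here. Whole-number counts per gene were deposited by the authors. Their totals differ by 0.164%, so an unstated step had made them nearly equal; if counts had been scaled and rounded, the spread that a count model assumes would not hold. P-values set group differences, or correlations, against the spread between these samples.

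Counts were filtered with filterByExpr (14451 genes kept), scaled with TMM factors (0.959 to 1.03) and tested with edgeR 4.0.16 (R 4.3.3), quasi-likelihood with robust dispersion, in 1 fit of all 24 libraries with 1 mean per group. Benjamini-Hochberg adjustment ran over all genes in the fit, and a gene was called at an adjusted p under 0.05. Fold changes are ± SE. DESeq2 1.42.0, other scalings and filters, 2 groups alone, a replicate block, a GC correction and left-out libraries were alternatives. On simulated data the fit was tested first. Correlations used log2 CPM with a prior count of 2 (scipy 1.17.1). Transcript lengths and GC came from GENCODE M21.

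The members and gene lists were chosen with earlier results of these data known. Named are all 8 members, other complement genes called in any comparison and up to 4 further genes with the highest level per role. Some of the called markers and genes among the 3 most like each member are also named. C3ar1, Itgam, Colec11 and Cd59b were added after their values were seen. RefSeq promoter windows (GRCm38.p6) were on hand for 4 of the 8 members; Cfb, C2, C4b and Serping1 are only named. A few listed complement genes, counted in the list totals, are not reported here by name and not drawn. Coordinates of genes are mm9 as deposited.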

Additional observations from a re-analysis of the deposited data

Results flagged for a closer look

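C4b in control 2 stood apart from the other 7 control libraries, at 158 CPM, beside 103.9 CPM in the next and 63.8 CPM in the lowest. C7 in control 1 stood apart likewise, at 435 CPM, beside 286 CPM in the next and 169 CPM in the lowest control. These were the 2 lone extremes among 36 groups of 8 libraries looked at, where chance gives about 1 in 20.

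The effects of celecoxib and rofecoxib against the same controls differed for few complement genes, as tested by edgeR's contrast between the drugs. These were 1 of 7 members tested, Serping1, and 2 of 31 other complement genes tested, Cfp and C5ar1. Over all genes tested, 22.7% were called in that contrast and 11.5% were called higher. Both complement shares were smaller than the 22.7% called. The difference was 0.38 on the log2 scale for Serping1 (edgeR adjusted p = 0.0098), 0.38 for Cfp (edgeR adjusted p = 0.0167) and 0.57 for C5ar1 (edgeR adjusted p = 0.0484). Celecoxib libraries lay above the rofecoxib mean in 8 of 8 for Serping1 and Cfp and in 7 of 8 for C5ar1. After the GC correction Serping1 kept its call (edgeR adjusted p = 0.043), while Cfp (edgeR adjusted p = 0.147) and C5ar1 (edgeR adjusted p = 0.0758) lost theirs. With the replicate block added, Serping1 lost its call as well (edgeR adjusted p = 0.0629). Doses differed between the drugs.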

How the results depend on the processing

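There were 1223 alternatives over 36 gene results. Of these, 1136 kept direction and stayed called or uncalled, 56 lost a call, 10 gained one and 21 changed sign. Most of the 1136 were uncalled results, among them C1rl, which was not tested and was compared by value only. The 56 losses came from the called results alone. With rofecoxib against control, C1qc lost its call in 18 and kept it in 16, C5ar1 in 9 and 25, Cd46 in 1 and 32. Between the drugs, C5ar1 lost its call in 24 and kept it in 10, Cfp in 3 and 31, Serping1 in 1 and 33. The 21 concern values near 0: for celecoxib against control, C4b from -0.12 to 0.10, C7 from -0.12 to 0.10 and C2 from -0.04 to 0.09 as single libraries were left out, and C2 at -0.0023 with the block and GC correction; for celecoxib against rofecoxib, Cfb from -0.10 to 0.05, and C3 at -0.02 without rofecoxib 1 and 2. The cause was not tested. Members called with celecoxib against control stayed at 0 under every alternative. With rofecoxib against control (0), DESeq2 called 1 and single libraries left out 0 to 1. Between the drugs (1), DESeq2 called 2, the block with GC correction 0 and single libraries left out 1 to 2.

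Other complement genes called with celecoxib against control (0) numbered 1 with DESeq2, 1 with the block and 0 to 1 with single libraries left out. With rofecoxib against control (3), they numbered 7 with DESeq2, 1 with the block, 1 with the GC correction, 0 with both and 1 to 5 with single libraries left out. Between the drugs (2), they numbered 1 with library totals, without a filter, with the block and without control 6 and rofecoxib 2, 0 with the GC correction, with both and without rofecoxib 1 and 2 (added after the data were seen), and 1 to 2 with single libraries left out. Counts per library were low for C5ar1 (35 to 143), Cd46 (16 to 50) and Cfb (26 to 89), which limits their precision.

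Over all genes, 204, 766 and 3275 were called for celecoxib against control, rofecoxib against control and celecoxib against rofecoxib; DESeq2 called 479, 1594 and 3634, no filter 86, 294 and 2420, the 2 groups alone 88, 461 and 3071, the GC correction 127, 69 and 830, and the block with it 110, 15 and 941. Library totals moved the split in celecoxib against control to 100 higher and 83 lower, beside 132 and 72. The replicate numbers in the titles are shared across groups, and same-numbered libraries correlated at -0.39 to 0.32 in their deviations (median 0.04, over 0.1 in 10 of 24 pairs). Among the 24 libraries, 5 correlated best with their own number in another group. Whether some numbers mark a shared step was not tested. The block on the number moved the counts of calls to 187, 653 and 3193.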

Other observations

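Interferon-responsive, acute-phase and glucocorticoid-responsive genes were counted from lists chosen with earlier results known. Of 25 interferon-responsive genes tested, 0 were called with rofecoxib against control by edgeR, and DESeq2 called 1, Tapbp, lower. An unadjusted p under 0.05 by edgeR was found for 6, beside 3916 of 14451 genes tested. The median log2 fold change was 0.35, with 24 of 25 above 0. One library decided this: the summed level was 2273 CPM in rofecoxib 5, the other 7 rofecoxib libraries ran from 770.6 to 1123 CPM, and control libraries from 893.5 to 1108 CPM. The median sums were 906.9 CPM with celecoxib, 992.6 with rofecoxib and 983.9 in controls. Without rofecoxib 5, the median log2 fold change with rofecoxib was -0.04, with 10 of 25 above 0. With celecoxib against rofecoxib 1, Iigp1, was lower (log2 fold change -1.26 ± 0.46, edgeR adjusted p = 0.0495), a call that was also lost without rofecoxib 5.

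Of 15 acute-phase genes tested, 3 fell with rofecoxib against control, beside 2.87% of all genes: Hp, haptoglobin, at a log2 fold change of -0.93 ± 0.27, Steap4 at -0.56 ± 0.14 and Serpina3n at -0.51 ± 0.14. With single libraries left out 0 to 3 fell, 0 of them without rofecoxib 2 or 8 or control 5, 6 or 7. With celecoxib against rofecoxib 2 of 15 were higher, beside 11.5% of all genes, Osmr and Serpina3n, the second at 0.46 ± 0.14. Of 19 glucocorticoid-responsive genes, 4 rose and 0 fell with celecoxib against control, Gadd45g, Hif3a, Mt2 and Nfkbia (median 0.36), beside 0.913% of all genes. With single libraries left out 2 to 5 rose, and 2 with the GC correction.

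Around C4b, C2 and Cfb on chromosome 17, 3 of 9 listed neighbours tested fell with rofecoxib against control, Dom3z, Ehmt2 and Skiv2l, at log2 fold changes of -0.29 ± 0.08, -0.17 ± 0.05 and -0.25 ± 0.06, beside 2.87% of all genes that fell. The same 3 genes were higher with celecoxib than with rofecoxib, by 0.26 ± 0.08, 0.23 ± 0.05 and 0.27 ± 0.06, beside 11.5% of all genes that were higher. After the GC correction none of the 3 was called in either comparison, and without rofecoxib 7 or 8 or control 5, 6 or 7 none had fallen with rofecoxib against control. The comparisons share the rofecoxib libraries. The part of these neighbours' reads in the C2 counts was not tested.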
